A study of Mus musculus with 2 samples.

Results

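The cornified surface region of the tongue was compared between 1 H3K36M section and 1 WT section over the 284 genes listed in both deposited cluster tables, of 879 genes listed in either. The region was cluster 1 of the WT section and cluster 3 of the H3K36M section, and genes were matched on their identifier. The data were Visium spatial transcriptomes, in which a frozen tissue section lies on an array of barcoded spots and each transcript molecule is counted by its unique molecular identifier (UMI). Both tongues were treated with 4NQO, a chemical carcinogen of the oral epithelium. The WT mouse was Krt14-Cre(-); LSL-H3K36M, so it carried the inducible allele without Cre, and the H3K36M mouse was Krt14-Cre(+); LSL-H3K36M. Cre driven by the Krt14 promoter acts in basal cells of stratified epithelia and in the cells that descend from them. The sources used do not state age, sex, dose or duration. With 1 section per genotype there was no test between genotypes. Ranges in parentheses are exact 95% intervals that cover counting error only, and differences between the sections in animal, tissue sampled, handling and genotype cannot be told apart.

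Keratinocytes of the tongue leave the basal layer, switch keratins and end as flattened, cornified cells. Their plasma membrane is replaced by an envelope of loricrin, small proline-rich (Sprr) and late cornified envelope (Lce) proteins that transglutaminases cross-link. Many of these genes, and the S100 genes, lie together in the epidermal differentiation complex on mouse chromosome 3. H3K36M is a histone H3 with methionine in place of lysine 36, which inhibits the enzymes that methylate that lysine.

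The WT region held 856199 UMIs and the H3K36M region 193928, with a median of 804 and 201 UMIs per shared gene. Per spot under tissue, the deposited metrics give a median of 4899 UMIs for WT and 763.5 for H3K36M, with 36.2% and 6.93% of reads in such spots. Levels below are rates, UMIs of a gene per 10000 UMIs of the region, which bring both regions to a common depth, and a pair of rates gives WT first. Of 12 markers of differentiated squamous epithelium, 11 were shared, and Ivl was in neither table. All 11 had their highest rate in cluster 3 within the H3K36M section. In the WT section 9 were highest in cluster 1, and Krt76 and Tchh were highest in the small cluster 3. The clusters were drawn from the same counts, so these ranks describe the regions and test nothing.

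At the common depth most shared genes had rates within 2-fold of each other in the cornified regions. In the H3K36M region 21 of 284 genes (7.39%) were at least 2-fold higher and 27 (9.51%) at least 2-fold lower, while 236 lay within 2-fold. The median log2 ratio of H3K36M to WT was 0.14 (interquartile range -0.40 to 0.55), with 159 genes (56%) above the WT rate and 125 (44%) below it. The counting interval of the ratio lay wholly above 1 for 125 genes (44%) and wholly below 1 for 89 (31.3%). Rates in the regions correlated across genes, which are not independent replicates, with a Spearman coefficient of 0.74. Of the 10 genes with the highest rate in each region, 6 were the same. The split of 21 higher and 27 lower genes depended on the scaling. It was 42 and 23 when the regions were scaled to the total of the shared genes, 13 and 35 with the median ratio set to 1, and 22 and 27 without mitochondrially encoded, ribosomal protein and muscle genes in the total. Scaling to the deposited medians under tissue moved every log2 ratio up by 0.82 and gave 137 and 11. The closeness of the rates thus also depended on the scaling. For the same genes in the pair of clusters numbered 2, 21 (7.39%) were at least 2-fold higher and 22 (7.75%) at least 2-fold lower in the H3K36M section, with a median of -0.056.

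**Figure D1:**
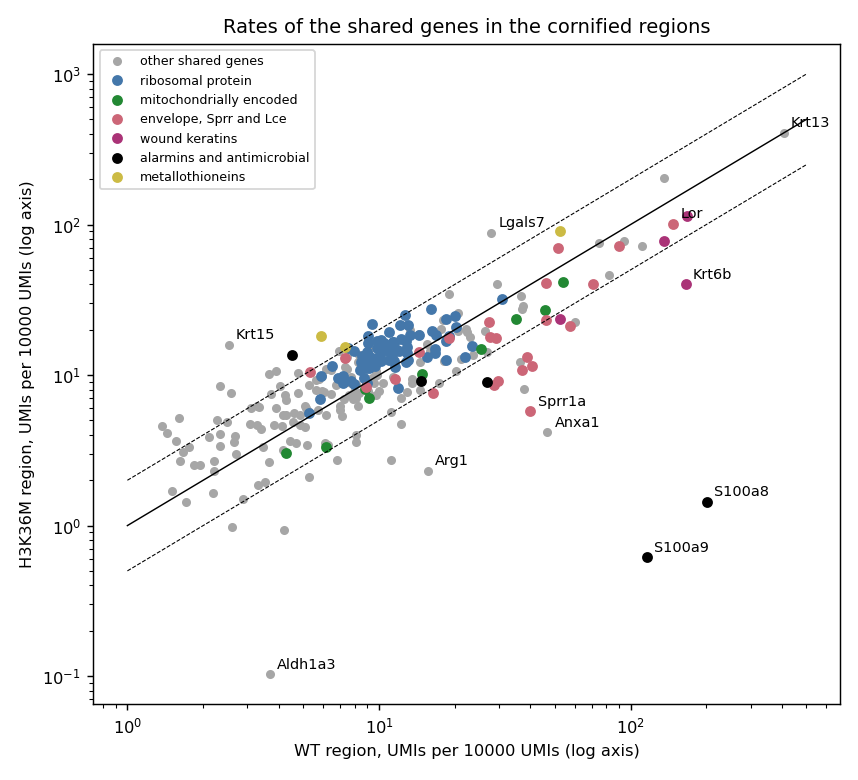
Rates of the 284 shared genes in the WT cornified region (x axis) and the H3K36M cornified region (y axis), in UMIs per 10000 on log axes, with 1 point per gene. Points gather along the line of equal rates, and S100a8 and S100a9 lie farthest below it.

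The alarmin genes S100a8 and S100a9 had the lowest ratios. They encode the paired subunits of calprotectin, a calcium-binding and metal-binding antimicrobial protein of neutrophils and of stressed keratinocytes. S100a9 (chr3:90692632-90695721, minus strand) had 116 UMIs per 10000 in the WT region, from 9950 UMIs, and 0.619 in the H3K36M region, from 12 UMIs. Its rate was thus 188-fold lower (107 to 364). S100a8 (chr3:90668978-90670035, plus strand) had 202 from 17261 UMIs and 1.44 from 28 UMIs, a rate 140-fold lower (96.6 to 210). Both were lower in every H3K36M cluster than in any WT cluster. S100a9 had 84.4 and 67.5 UMIs per 10000 in WT clusters 2 and 3, and 1.74, 17.1 and 3.02 in H3K36M clusters 1, 2 and 4. Within the H3K36M section both were highest in cluster 2, where S100a8 had 26.5 UMIs per 10000 and the log2 fold changes in the authors' deposited table were 3.50 for S100a8 and 3.83 for S100a9. In the pair of clusters numbered 2, S100a9 was 4.93-fold lower and S100a8 5.80-fold lower in the H3K36M section. These are spots of the same sections, so the cluster pairs are not separate replicates. The other 7 genes of the neutrophil list were in neither table. A smaller number of cells of a type and less RNA per cell cannot be told apart in spots.

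The remaining alarmin and antimicrobial genes were mixed. The full list, S100a8 and S100a9 included, had 13 members listed for the WT section, of which 5 were shared. At least 2-fold lower were 3 of these 5, namely S100a8, S100a9 and Bpifa5, against 9.51% of all shared genes. The median log2 ratio of these 5, S100a8 and S100a9 included, was -1.58, against 0.14 over all shared genes. Bpifa5, of the family of bactericidal permeability-increasing proteins, had 27.0 and 9.02 UMIs per 10000. The beta-defensin Defb4 had 14.7 and 9.13, and lay above WT only after scaling to the deposited medians. Lyg1, a goose-type lysozyme gene, went the other way, from 4.50 in the WT region to 13.6 in the H3K36M region, 3.03-fold higher (2.58 to 3.55).

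**Figure D2:**
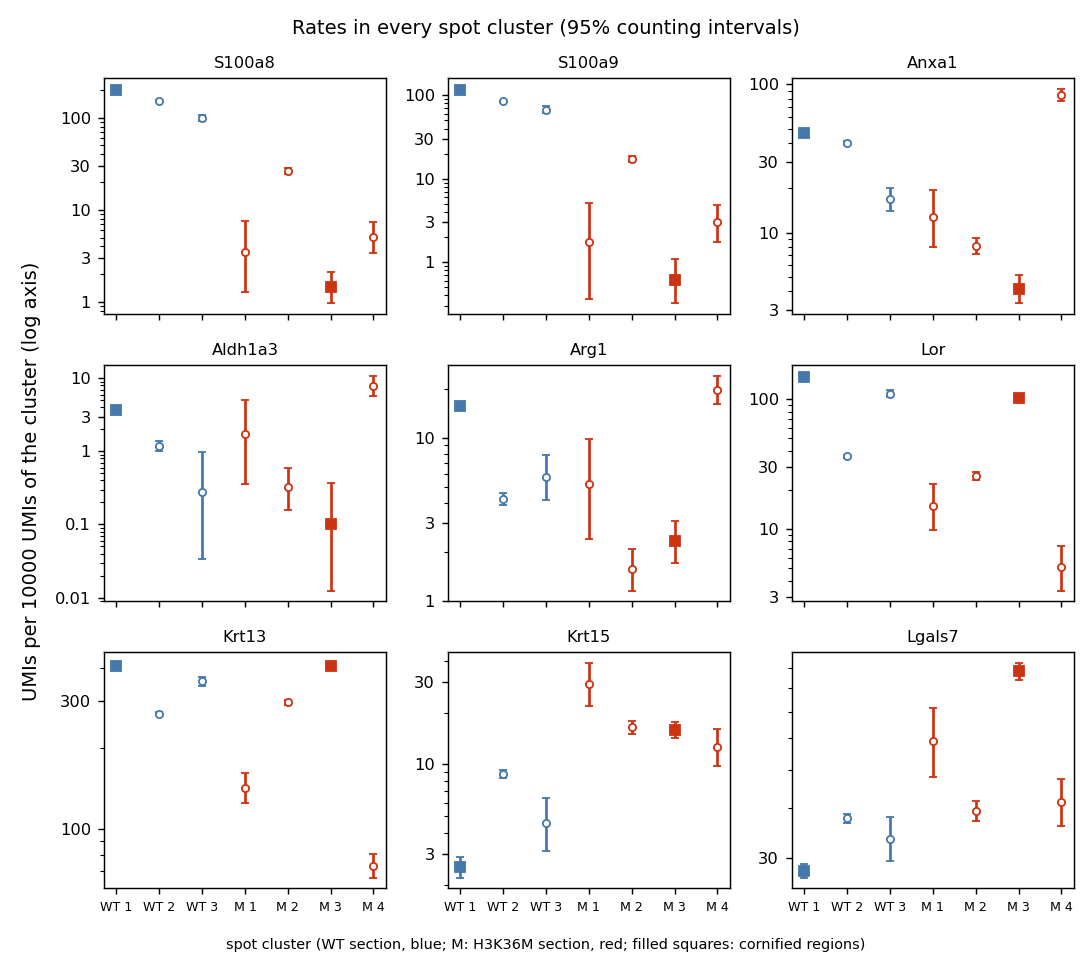
Rates of 9 genes, in UMIs per 10000 on log axes, in each spot cluster of the WT section (blue) and the H3K36M section (red, M), with 95% counting intervals and the cornified regions as filled squares. S100a8 and S100a9 are lower in every H3K36M cluster than in any WT cluster, whereas Anxa1, Aldh1a3 and Arg1 are highest in H3K36M cluster 4.

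Anxa1, Aldh1a3 and Arg1 were also low in the H3K36M cornified region but not in every cluster of its section. Anxa1 (chr19:20373428-20390944, minus strand), which encodes a calcium-dependent phospholipid-binding protein with anti-inflammatory activity, had 46.7 UMIs per 10000 in the WT region and 4.18 in the H3K36M region, 11.2-fold lower (8.97 to 14.1). Arg1 (chr10:24915221-24927484, minus strand), the arginase of the urea cycle, had 15.6 and 2.32, 6.74-fold lower (5.01 to 9.29). Aldh1a3 (chr7:66390890-66427517, minus strand), which makes retinoic acid, had 316 UMIs in the WT region and 2 in the H3K36M region, a ratio of WT to H3K36M of 35.8 (9.83 to 297). In H3K36M cluster 4, Anxa1 stood at 84.7, Arg1 at 19.8 and Aldh1a3 at 7.92 UMIs per 10000, each above every WT cluster. The H3K36M section thus held clusters on both sides of the WT levels for these genes, with the cornified region on the low side. Cluster 4 held 9.29% of the UMIs of the H3K36M section, and cluster 2 held 53.7%. Cluster 2 was also low against the rest of that section. Its log2 fold changes in the authors' deposited table were -1.35 for Anxa1, -2.34 for Aldh1a3 and -1.92 for Arg1. Of the 7 shared annexin and other S100 genes, Anxa1, S100a10 and S100a11 were at least 2-fold lower, against 9.51% of all shared genes. The list median was -0.77, or 0.046 after scaling to the deposited medians. In the pair of clusters numbered 2 the list median was -0.83, so the lower level was not particular to the cornified regions. S100a10, the partner of annexin A2, had 4.19 and 0.928 UMIs per 10000.

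Genes of the epidermal differentiation complex were lower together. Between the outermost shared S100 genes (chr3:90526856-93564643, a stretch chosen after the values were seen) lay 19 shared genes. Of these, 13 were at least 2-fold lower in the H3K36M region and 0 higher, against 9.51% lower among all shared genes. Their median log2 ratio was -1.45, and they took 9.86% of the UMIs of the WT region and 3.18% of those of the H3K36M region. Of these shares, S100a8 and S100a9 alone made up 3.18% of the UMIs of the WT region and 0.021% of those of the H3K36M region. The rate was below WT for 18 of 19 genes, for 19 with the median ratio set to 1 and for 14 after scaling to the deposited medians. S100a14 was the exception at the common depth, with 15.5 and 16.1 UMIs per 10000. In the pair of clusters numbered 2 the median of the same genes was -0.84, and 19 of 19 were below WT. There 7 of 19 were at least 2-fold lower, against 7.75% of all shared genes. The lower level was thus not particular to the cornified regions.

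**Figure D3:**
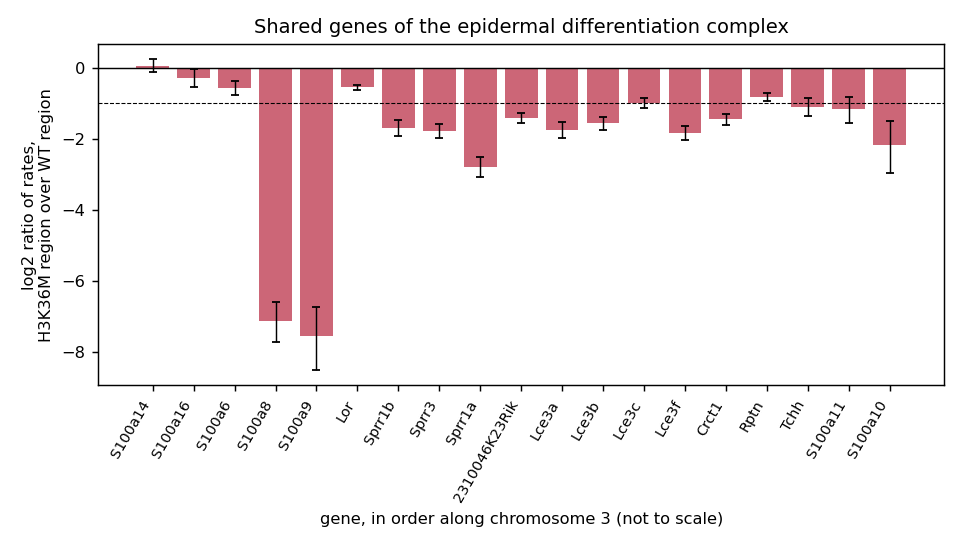
Log2 ratio of rates, H3K36M over WT cornified region, for the 19 shared genes of the epidermal differentiation complex in their order along the chromosome, with 95% counting intervals and a dashed line at 2-fold lower. All bars but that of S100a14 point down; after scaling to the deposited medians 14 of 19 lie below WT.

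Within the complex the S100 pair, the Sprr genes and the Lce genes were lower by more than loricrin. All 3 shared Sprr genes were at least 2-fold lower at the common depth, against 9.51% of all shared genes. They were below WT under every scaling, with a median of -1.78. In the pair of clusters numbered 2 the Sprr median was -1.66, so the lower level was not particular to the cornified regions. Sprr1a had 40.0 and 5.78 UMIs per 10000, 6.92-fold lower (5.74 to 8.43). Sprr3 had 37.2 and 10.8, and Sprr1b had 29.6 and 9.13. All 4 shared Lce genes were below WT under every scaling, with a median of -1.65, or -0.43 in the pair of clusters numbered 2. At the common depth 3 of the 4 were at least 2-fold lower, against the same 9.51%. Lce3f had 40.6 and 11.4 UMIs per 10000, while Lce3c, the least lowered, had 46.1 and 23.4. Members of both families have near-identical copies, so the values of single genes are uncertain. Lor, the gene of loricrin and the main envelope protein, had 147 and 101 UMIs per 10000, 1.45-fold lower (1.39 to 1.53), and was above WT after scaling to the deposited medians.

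The promoters of 4 genes of the complex are shown, the 3 with the lowest ratios (S100a9, S100a8 and Sprr1a) and Lor, the gene of the main envelope protein. The sequences are the 250 bases before the RefSeq start in GRCm38.p6, written 5′ to 3′ on the strand of the gene. Capitals mark TATAAA on the strand of the gene and TGANTCA, the AP-1 motif, on either strand.
S100a8 promoter, chr3:90668821-90669070, plus strand: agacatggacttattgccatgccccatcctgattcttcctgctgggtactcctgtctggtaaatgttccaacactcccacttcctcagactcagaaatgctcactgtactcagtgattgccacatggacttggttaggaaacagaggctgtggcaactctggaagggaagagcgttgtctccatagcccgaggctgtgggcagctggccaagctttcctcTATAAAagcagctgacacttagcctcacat
S100a9 promoter, chr3:90695722-90695971, minus strand: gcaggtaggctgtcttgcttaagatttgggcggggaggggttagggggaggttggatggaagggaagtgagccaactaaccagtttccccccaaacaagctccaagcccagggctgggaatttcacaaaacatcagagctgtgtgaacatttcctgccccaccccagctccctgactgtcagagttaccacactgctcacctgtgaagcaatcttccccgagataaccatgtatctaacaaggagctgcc
Sprr1a promoter, chr3:92485882-92486131, minus strand: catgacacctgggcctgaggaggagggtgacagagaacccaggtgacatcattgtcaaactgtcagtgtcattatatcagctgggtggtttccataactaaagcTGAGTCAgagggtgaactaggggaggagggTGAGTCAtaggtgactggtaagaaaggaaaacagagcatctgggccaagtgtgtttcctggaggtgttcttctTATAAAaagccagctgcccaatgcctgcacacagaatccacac
Lor promoter, chr3:92083143-92083392, minus strand: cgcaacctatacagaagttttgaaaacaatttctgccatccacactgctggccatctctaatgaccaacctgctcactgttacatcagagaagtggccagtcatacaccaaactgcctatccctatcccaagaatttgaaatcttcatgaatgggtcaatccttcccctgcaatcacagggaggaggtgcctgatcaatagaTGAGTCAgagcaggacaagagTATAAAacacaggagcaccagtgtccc
The Sprr1a window held 2 TGANTCA matches, at -146 and -116 from the start, and a TATAAA at -43. The Lor window held 1 of each, at -48 and -27. The S100a8 window held TATAAA at -30 and 0 matches to TGANTCA, and the S100a9 window held neither. TGANTCA was found for 6 of the 15 genes of the complex with a promoter in the RefSeq table, for 31 of 207 shared genes (15.0%) and for 7.82% of 27025 genes in all. Among genes at least 2-fold lower it was found for 4 of 18, and among those at least 2-fold higher for 2 of 18. TATAAA was found for 6 of 15 genes of the complex, 8 of 18 lower genes, 1 of 18 higher genes, 31 of 207 shared genes (15.0%) and 8.94% of all genes. The C/EBP motif TTNNGNAA, on either strand, was found for 11 of 15, 12 of 18, 7 of 18, 85 of 207 (41.1%) and 40.3% in the same order. A match describes letters in this window and is not evidence of a bound factor.

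Keratins of the differentiated surface were similar in both regions. None of the 7 shared members was past 2-fold, and the median log2 ratio was -0.094, or 0.13 when scaled to the total of the shared genes and 0.72 when scaled to the deposited medians. Krt13, the main suprabasal keratin of the tongue surface, had 406 UMIs per 10000 in both regions, a ratio of 0.999 (0.975 to 1.02). Its partner Krt4 had 136 in the WT region and 203 in the H3K36M region, 1.49-fold higher (1.44 to 1.55). Krt36 and Krt84, hair-type keratins of tongue papillae, had 22.2 and 9.69 in the WT region and 20.4 and 10.7 in the H3K36M region.

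Keratins of wounded and stressed epithelium were below WT in all 4 cases, against 44% of all shared genes, with a median of -0.98. However, Krt16 and Krt6a were above WT after scaling to the deposited medians. In the pair of clusters numbered 2 the median of the same 4 keratins was -1.33, so the lower level was not particular to the cornified regions. Krt6b had 165 and 40.0 UMIs per 10000, 4.14-fold lower (3.85 to 4.46), and Krt17 had 52.5 and 23.7. Krt16 had 135 and 77.2, and Krt6a had 168 and 114. Krt6a and Krt6b are near-identical, so the split between them is uncertain.

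Krt15, a keratin of basal cells, had the highest ratio of all shared genes. Krt15 (chr11:100131758-100135928, minus strand) had 2.52 UMIs per 10000 in the WT region, from 216 UMIs, and 15.9 in the H3K36M region, from 308 UMIs, 6.30-fold higher (5.27 to 7.53). Its rates were 8.79 and 4.53 in WT clusters 2 and 3 and 29.5, 16.4 and 12.6 in H3K36M clusters 1, 2 and 4, so every H3K36M cluster exceeded every WT cluster. The other basal keratins did not share this size of difference. Krt5 had 13.3 and 19.9 UMIs per 10000, and its partner Krt14 had 82.3 and 46.4.

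Among cornified envelope precursors and surface proteins, 2 of 16 shared genes were at least 2-fold lower and 0 higher, close to the 9.51% lower and 7.39% higher among all shared genes. The median was -0.29. At the common depth 13 of 16 were below WT, but 2 of 16 were after scaling to the deposited medians. The lowered genes were Crct1 (57.6 and 21.1 UMIs per 10000) and Tchh, of trichohyalin (16.4 and 7.63). Calm4, a calmodulin-like skin protein gene, was above WT with 51.4 and 70.1. The envelope cross-linking enzymes Tgm1 and Tgm3 had 9.69 and 36.8 in the WT region and 7.32 and 33.4 in the H3K36M region, both above WT after scaling to the deposited medians. Of 8 shared protease inhibitors 6 were below WT, and 3 after scaling to the deposited medians. Serpinb3a (37.7 and 8.10) and Cstb (8.11 and 3.97) were at least 2-fold lower and 0 higher, against 9.51% and 7.39% of all shared genes. None of the 7 junction, 6 protease and 3 barrier lipid genes shared was past 2-fold. Dsp, the desmosomal linker desmoplakin, had 20.3 and 10.6, and Klk14, a surface kallikrein, had 26.8 and 14.2.

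At the common depth 3 of 11 detoxification genes were at least 2-fold lower, against 9.51% of all shared genes, and 0 were higher, against 7.39%. The lower genes were Aldh1a3, the omega-class glutathione transferase Gsto1 (36.5 and 12.3 UMIs per 10000) and the thioredoxin gene Txn1 (12.2 and 4.74). The list median was -0.13, with 5 of 11 above WT. After scaling to the deposited medians it was 0.69, with 3 genes at least 2-fold higher and 1 lower. Metallothioneins, which bind zinc and copper, were above WT in all 3 shared cases under every scaling, with a median of 1.07. Mt2 had 5.90 and 18.0, 3.06-fold higher (2.66 to 3.51), Mt1 had 7.36 and 15.4, and the squamous epithelial Mt4 had 52.2 and 90.8. In the pair of clusters numbered 2 the metallothionein median was -0.066.

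**Figure D4:**
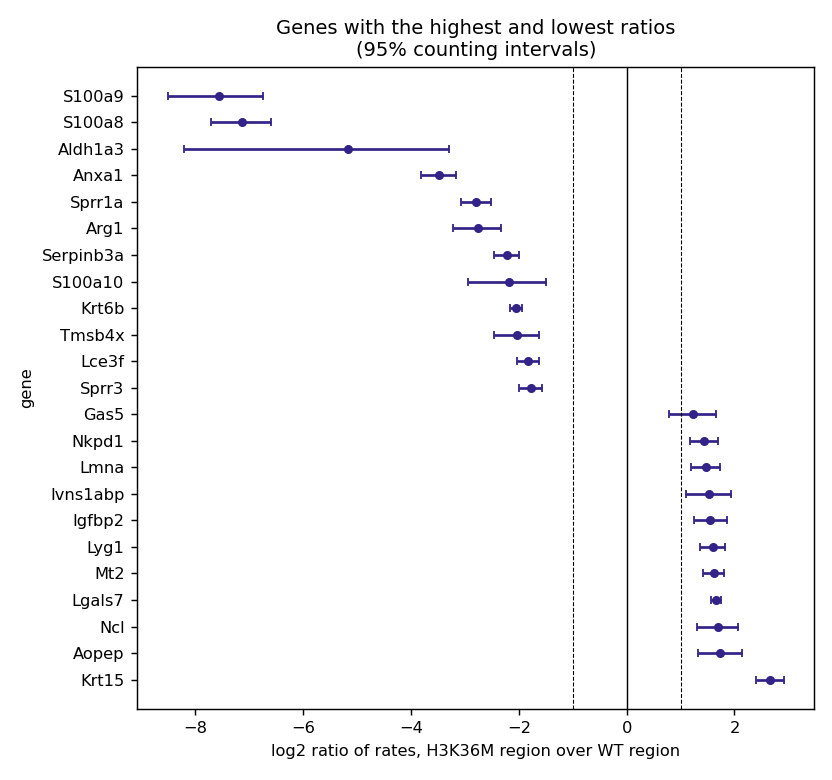
Log2 ratio of rates, H3K36M over WT cornified region, for the 12 shared genes with the lowest ratio and 11 of the 12 with the highest, leaving out predicted genes; bars are 95% counting intervals and dashed lines mark 2-fold. The lowest, S100a9, stands at -7.55 and the highest, Krt15, at 2.65.

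Of the 21 genes at least 2-fold higher, 11 belonged to none of the gene lists. Lgals7 (chr7:28863853-28866284, plus strand), the galectin of stratified epithelia, had 27.9 and 88.3 UMIs per 10000, 3.16-fold higher (2.97 to 3.36). It was the most abundant of the 21 higher genes, and its cluster 2 rates were 37.8 and 39.4. Lmna, of the nuclear lamins A and C, had 3.67 and 10.1, and the nucleolar protein gene Ncl had 1.60 and 5.16. The insulin-like growth factor binding protein gene Igfbp2 had 2.58 and 7.58. The aminopeptidase gene Aopep had 1.38 and 4.59, Ivns1abp had 1.44 and 4.13, Nkpd1 had 3.90 and 10.6, and the small nucleolar RNA host gene Gas5 had 1.57 and 3.66. Of the 21 higher genes, 16 had a WT rate below 7.24 UMIs per 10000. That is the inferred level that a gene must reach in some H3K36M cluster to be listed for that section. A gene at such a WT rate could be listed through a high H3K36M value, so its place among the higher genes is not independent of the listing.

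At the lower end, Tmsb4x, which binds actin monomers, had 11.1 and 2.73 UMIs per 10000, 4.08-fold lower (3.09 to 5.48). The actin genes themselves differed less, with 18.0 and 23.2 for Actb and 22.9 and 17.9 for Actg1. B2m, the light chain of class I antigen-presenting molecules, had 6.83 and 2.73, while the heavy chain genes H2-K1 and H2-D1 had 5.72 and 5.16 in the WT region and 5.88 and 3.46 in the H3K36M region. The stress-induced Ier3 had 5.29 and 2.11. The replacement histone genes H3f3a and H3f3b had 7.10 and 5.96 in the WT region and 5.31 and 9.80 in the H3K36M region.

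Ribosomal protein genes were the largest group. Of 76 shared, 63 were above WT and 13 below, and 3 were at least 2-fold higher (Rpl4, Rpl8 and Rpl10a), with a median of 0.37. Of all shared genes, 56% were above WT and 7.39% at least 2-fold higher, so the count past 2-fold did not exceed the background. The count above WT ranged from 55 to 76 over the scalings. Together they took 9.01% of the UMIs of the WT region and 11.3% of those of the H3K36M region. Processed copies of these genes make single values uncertain. Of 17 translation genes listed for the WT section, 12 were shared, with a median of 0.46. At least 2-fold higher were 2 of 12, against 7.39% of all shared genes. They were Ncl and the elongation factor Eef2 (6.93 and 14.5 UMIs per 10000). Both had WT rates below 7.24, the H3K36M listing limit, so their place among the higher genes is not independent of the listing. Of 51 nuclear-encoded respiratory chain genes listed for the WT section, 11 were shared. These 11 had a median of 0.38, but the 3 with at least 100 expected UMIs had a median of -0.25. A gene below 7.24 UMIs per 10000 in the WT region could be shared through a high H3K36M value in some cluster. The list median is thus not independent of the listing. Of 11 chaperones listed for the WT section, the 4 shared had a median of 0.48, and no shared chaperone or respiratory chain gene was past 2-fold. Of 10 glycolysis genes listed for the WT section, the 5 shared had a median of 0.20, also with none past 2-fold. The same limit of the listing applies to the medians of the chaperones and glycolysis genes.

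**Figure D5:**
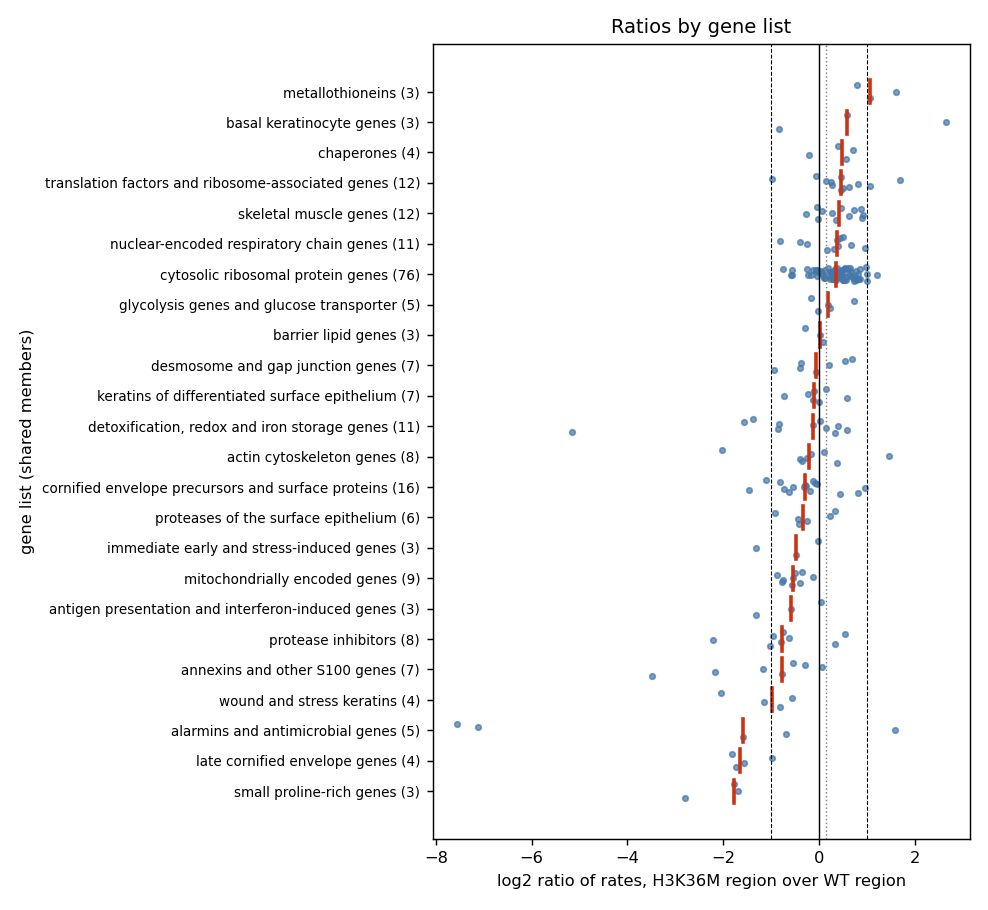
Log2 ratios of rates, H3K36M over WT cornified region, by gene list, with 1 point per shared gene, red bars at list medians, dashed lines at 2-fold and a dotted line at the median of all shared genes. All Sprr and Lce genes lie below 0 and all metallothioneins above 0 under every scaling, whereas the medians of other lists, such as the squamous keratins, change side of 0 with the scaling.

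Transcripts of tissue other than keratinocytes could be seen only where their genes passed the listing limits given below, so their full share is not known. Muscle genes took 0.382% of the UMIs in the WT region and 0.483% in the H3K36M region, with 9 of 12 above WT, and 8 to 12 over the scalings. Mitochondrially encoded genes took 2.03% and 1.38%, with all 9 below WT, but 1 of 9 after scaling to the deposited medians. In the clusters numbered 2 the mitochondrial share was 1.93% and 6.09%. No gene of the fibroblast, endothelial, lymphocyte, macrophage, erythroid and adipocyte lists was in either table. This does not show that such cells were absent. Of the salivary gland list only Ltf, of lactoferrin, was listed, for the H3K36M section alone, at 0.516 UMIs per 10000 in the cornified region. Cldn4, a claudin on the list of simple or ductal epithelium, had 2.88 UMIs per 10000 in the WT region and was 1.93-fold lower (1.31 to 2.94) in the H3K36M region. Within the WT section it was highest in the cornified region, and within the H3K36M section in cluster 4. Its level is therefore not read here as a sign of tissue other than keratinocytes. The part of muscle content, mitochondrial share and depth in the differences above was not tested.

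The shared genes left out much of the WT cornified region. They held 53.5% of its UMIs and 46.0% of those of the H3K36M region, and the 581 genes listed for the WT section alone held another 18.5% of the WT region. The listing limits were inferred to be 1.99 UMIs per 10000 in some cluster for the WT table and 7.24 for the H3K36M table. As the limit applies to the highest cluster, 83 shared genes lay below it in the H3K36M cornified region. Esd and Tgm1 were the shared genes just inside the H3K36M limit, with highest H3K36M rates of 7.31 and 7.32. In the WT region 33 of the unshared genes exceeded 7.24, and 13 of these lay in the epidermal differentiation complex. They included Sprr2i at 39.2, Sprr2d at 31.2, Sprr2b at 29.2 and Lce3e at 21.1, beside the connexin gene Gjb2 at 23.3, the beta-defensin Defb3 at 18.1 and the cytokine gene Il1f6 at 17.3. Their H3K36M rates were not analysed here. Whether that table is complete above its limit is not known; if it is, each was below 7.24 in all H3K36M clusters. The 14 genes of the H3K36M table alone included the metallothionein Mt3, at 7.63 UMIs per 10000 in the cornified region.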

How the data were processed

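Deposited tables of 1 WT and 1 H3K36M tongue section were used, with groups taken from the labels. The submitters' processing notes name Space Ranger and GRCm38 (mm10). The Space Ranger version is not given in the sources used here, nor is how spots were clustered. Per the file headers, the deposited metrics give a count of spots and reads, and a fraction of reads, printed as a percent. For each cluster and gene the deposited tables hold a p-value, a log2 fold change and an average (a signal), per the file headers. The deposited p-values compare spots, which are not replicates, and served only to pick the genes listed for a closer look, at 0.05.

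The scale of the deposited averages was inferred: each was a whole UMI count divided by summed size factors, and all deposited log2 fold changes were regained from these counts with 1 UMI added. Size factors implied medians of 5027 and 1380.5 UMIs for the clustered spots, which differ from the deposited 4899 and 763.5, so region totals rest on this reading. Rates used the cluster's total UMIs. Intervals were exact Poisson and exact conditional, at 95%. The calculation was tested on simulated data.

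Genes past 2-fold were counted. The members and the 37 gene lists were chosen with earlier results of these data known. Genes were named by a rule: the 12 highest and 12 lowest ratios, the 10 highest mean rates, in each list the 3 highest rates and 2 largest ratios, and region markers, all with at least 20 expected UMIs in the smaller region. Defb4, Esd, S100a11, Txn1, Rpl8 and the genes outside the shared set were named after their values were seen. One of the highest ratios is not reported here. Positions came from GENCODE M21, which held all 879 identifiers, 872 with the same symbol. Promoters came from RefSeq GRCm38.p6, which matched 207 of the 284 genes. Alternatives were other scalings, UMI minimums, folds and cluster pairs. Calculations used Python 3.11.15, numpy 2.4.6, pandas 2.3.3, scipy 1.17.1 and matplotlib 3.10.9.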

Additional observations from a re-analysis of the deposited data

Results flagged for a closer look

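Against the rest of its own section, the cornified cluster had log2 fold changes of opposite sign in the WT and H3K36M tables for 60 of the 284 shared genes, and for 11 of the 24 with the highest or lowest ratios. The 6 of these 24 with a deposited p-value under 0.05 in both tables are given here, and their differences between the tables were not tested. In the authors' deposited table, S100a9 had a log2 fold change of 0.47 in WT cluster 1 and -4.44 in H3K36M cluster 3, a difference of -4.91. S100a8 had 0.41 and -3.91 in the authors' deposited table, a difference of -4.33. Aldh1a3 had 1.67 and -3.27 in the authors' deposited table, a difference of -4.94. Anxa1 had 0.25 and -2.18 in the authors' deposited table, a difference of -2.44, and Arg1 had 1.86 and -0.87, a difference of -2.73. Lgals7 went the other way, with -0.43 and 1.11 in the authors' deposited table, a difference of 1.54. Each value rests on 1 section and on spots that are not replicates.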

How the results depend on the processing

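The number of genes at least 2-fold higher, 21 as reported, was 42 scaled to the total of the shared genes, 13 with the median ratio set to 1 and 137 scaled to the deposited medians under tissue. It was 9 with at least 100 expected UMIs, 65 at 1.5-fold, 7 at 3-fold and 12 with the whole interval past 2-fold. The number at least 2-fold lower, 27 as reported, was 11 scaled to the deposited medians, 55 at 1.5-fold and 14 at 3-fold. The median log2 ratio, 0.14 as reported, was 0.36, 0 and 0.96 under these scalings in turn, -0.067 without ribosomal protein, mitochondrially encoded and muscle genes, -0.056 between the clusters numbered 2 and 0.010 with all clusters pooled. The other alternatives kept the counts within 1.5 times. For named genes 245 of 428 recomputed values stayed within the counting interval, and for gene lists 87 of 161 medians moved by at most 0.1. No value past 2-fold changed sign, but smaller values did: 48 values of named genes and 17 list medians, from 13 of 24 lists, fell on the other side of 0, 11 of the medians after scaling to the deposited medians. Of 39 named genes past 2-fold, 24 stayed past it under every scaling, including all of the 12 highest and 12 lowest except Sprr3. No paired analysis was possible because each genotype had 1 section and the labels give no replicate numbers. Counts as low as 2 UMIs limit the lowest H3K36M values, and no value carries a spread between animals.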
